A study of Homo sapiens with 8 samples.

Results

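The 10 genes described here write, maintain or remove DNA methylation or write trimethylation of lysine 27 of histone H3 (H3K27me3), and they were taken by gene symbol from a table of TPM (the level of a gene's transcripts, corrected for gene length and scaled to the same total in each library). They are DNMT1, DNMT3A, DNMT3B, UHRF1, TET1, TET2, TET3, EZH2, SUZ12 and EED. All 10 were found among the 26364 genes of the table, and all 10 passed the filter of at least 1 TPM in at least 2 libraries that left 14151 genes to test. TET1 passed through the Control and TCP libraries alone, since its level was under 1 TPM in every Palbo and Combo library, so its inclusion favoured a difference.

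The libraries are RNA-seq of MV4-11, an established acute myeloid leukemia (AML) cell line with an MLL-AF4 fusion and an internal tandem duplication of FLT3, both of which all groups share. Cells received vehicle (DMSO, here Control), tranylcypromine at 5 µM (TCP, an inhibitor of the histone demethylase LSD1), palbociclib at 0.5 µM (Palbo, an inhibitor of CDK4 and CDK6) or both molecules (Combo), with 2 libraries per group, labelled as day 4. The same duration is given for the single molecules as for both, while the methods for treatments in culture describe CDK6 inhibition first and then both molecules together. The comparisons asked how the transcripts of these genes differed after each molecule and after both in 1 cell line. The labels do not say that the replicates came from separate cultures, so the spread between libraries may be technical.

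DNA methylation is placed on unmethylated sites by DNMT3A and DNMT3B, and it is copied to the daughter strand after replication by DNMT1, which UHRF1 brings to hemimethylated DNA. The TET dioxygenases oxidize 5-methylcytosine, which leads to its loss. Polycomb repressive complex 2 (PRC2) trimethylates H3K27 through its catalytic subunit EZH2, or through the alternative EZH1, and needs the core subunits SUZ12 and EED. In myeloid leukemia, DNMT3A, TET2 and EZH2 are recurrently mutated genes.

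Of the promoters of these genes, those of DNMT1, UHRF1, EZH2 and SUZ12 contained a word of the E2F type. Those of DNMT3B, TET1 and EED, which were also lower after palbociclib, did not, and neither did those of DNMT3A, TET2 and TET3. Promoters with and without the word are shown. E2F factors bind such words and are released when CDK4 and CDK6 phosphorylate the RB protein. The sequences are from RefSeq (table build GRCh38.p14), and the coordinates are of the same sequence matched in GRCh37. Each runs 5′ to 3′ on the strand of the gene and ends 25 bases after the annotated start, and capitals mark the E2F word.

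DNMT1, chr19:10305605-10305749, minus strand: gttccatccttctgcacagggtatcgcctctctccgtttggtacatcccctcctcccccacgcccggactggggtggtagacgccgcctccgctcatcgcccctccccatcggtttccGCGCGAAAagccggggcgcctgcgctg

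UHRF1, first start, chr19:4909393-4909537, plus strand: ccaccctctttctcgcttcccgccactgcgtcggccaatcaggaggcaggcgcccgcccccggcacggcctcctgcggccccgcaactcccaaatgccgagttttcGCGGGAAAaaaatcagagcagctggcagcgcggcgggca

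UHRF1, second start, chr19:4909986-4910180, plus strand: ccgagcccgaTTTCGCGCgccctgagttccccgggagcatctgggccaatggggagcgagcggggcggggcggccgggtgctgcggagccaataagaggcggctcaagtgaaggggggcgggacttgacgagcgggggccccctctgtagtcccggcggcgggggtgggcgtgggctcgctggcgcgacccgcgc

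EZH2, first start, chr7:148581359-148581503, minus strand: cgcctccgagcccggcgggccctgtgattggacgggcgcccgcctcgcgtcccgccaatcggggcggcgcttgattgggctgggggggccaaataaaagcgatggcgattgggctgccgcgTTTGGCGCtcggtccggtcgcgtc

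SUZ12, chr17:30263827-30264050, plus strand: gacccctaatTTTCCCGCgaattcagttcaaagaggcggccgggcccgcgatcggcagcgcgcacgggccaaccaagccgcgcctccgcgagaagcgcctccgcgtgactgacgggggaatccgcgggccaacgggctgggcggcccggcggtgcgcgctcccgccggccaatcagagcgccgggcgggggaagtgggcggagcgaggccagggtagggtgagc

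DNMT3B, chr20:31367538-31367682, plus strand: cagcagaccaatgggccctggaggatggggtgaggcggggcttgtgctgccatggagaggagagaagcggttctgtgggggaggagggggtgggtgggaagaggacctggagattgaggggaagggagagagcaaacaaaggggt

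TET1, first start, chr10:70319974-70320118, plus strand: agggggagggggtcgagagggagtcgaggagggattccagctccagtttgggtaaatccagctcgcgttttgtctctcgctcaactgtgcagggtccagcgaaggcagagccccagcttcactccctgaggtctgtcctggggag

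EED, chr11:85955675-85955819, plus strand: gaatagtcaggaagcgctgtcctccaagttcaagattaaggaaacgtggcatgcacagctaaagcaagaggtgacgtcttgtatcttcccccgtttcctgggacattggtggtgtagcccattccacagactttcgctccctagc

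TET2, first start, chr4:106066912-106067056, plus strand: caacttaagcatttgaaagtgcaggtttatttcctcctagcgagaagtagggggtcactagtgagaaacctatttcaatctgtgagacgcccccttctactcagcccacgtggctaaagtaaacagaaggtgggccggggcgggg

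TET3, first start, chr2:74211917-74212061, plus strand: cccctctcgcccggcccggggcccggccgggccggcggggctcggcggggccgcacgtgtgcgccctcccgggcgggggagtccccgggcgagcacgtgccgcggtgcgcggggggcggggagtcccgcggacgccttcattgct

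The words searched were TTTCCCGC, TTTCGCGC, TTTGCCGC and TTTGGCGC, on both strands, from 250 bases before to 50 bases after each start. They occurred in 1164 of 35116 windows (3.31%) and in 1090 of 27305 genes (3.99%), against 4 of the 10 genes described here. These 4 are among the 7 called lower in Palbo. The share among the genes tested, or among all genes called lower in Palbo, was not counted. The 10 genes and the words were chosen with earlier results of these data known, so these counts are a description only. The stretches shown for DNMT1, UHRF1, DNMT3B and EED lie wholly inside the annotated gene, so their starts are not its outermost one. The word lay across the start in DNMT1, from base -2 to 6, and just after it in EZH2, from base 2 to 9. It lay at -14 to -7 and at -160 to -153 of the first and second UHRF1 starts, and at -189 to -182 in SUZ12. DNMT3A has 6 windows in that table, UHRF1 and TET1 have 3, TET2, TET3 and EZH2 have 2 and the others have 1, and a gene with more windows had more chances of a match. The words TTTGAA and TTCGAA of the cell cycle genes homology region (CHR), searched the same way, occurred in 19.5% of genes and in 3 of these 10 (DNMT3A, TET2 and SUZ12), and overlapped no E2F word in them. A match is only a run of letters, and binding was not measured here.

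Levels of DNMT1, UHRF1, DNMT3B, TET1, EZH2, SUZ12 and EED fell with palbociclib, with or without TCP, and no gene of the 10 passed the test after TCP alone. UHRF1 fell furthest on the tested scale, log2(TPM + 1), and TET1, the least abundant, fell furthest as a percentage of its control level. DNMT3A fell with the combination, and TET3 stayed between 20.2 and 26.0 TPM in all 8 libraries. TET2 did not pass the test against Control (limma adjusted p = 0.0525 in Palbo and 0.0808 in Combo). Its level was higher in all 4 libraries with palbociclib than in the 4 without. Here and below, the share of all genes with such an order of libraries was not counted.

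**Figure D1:**
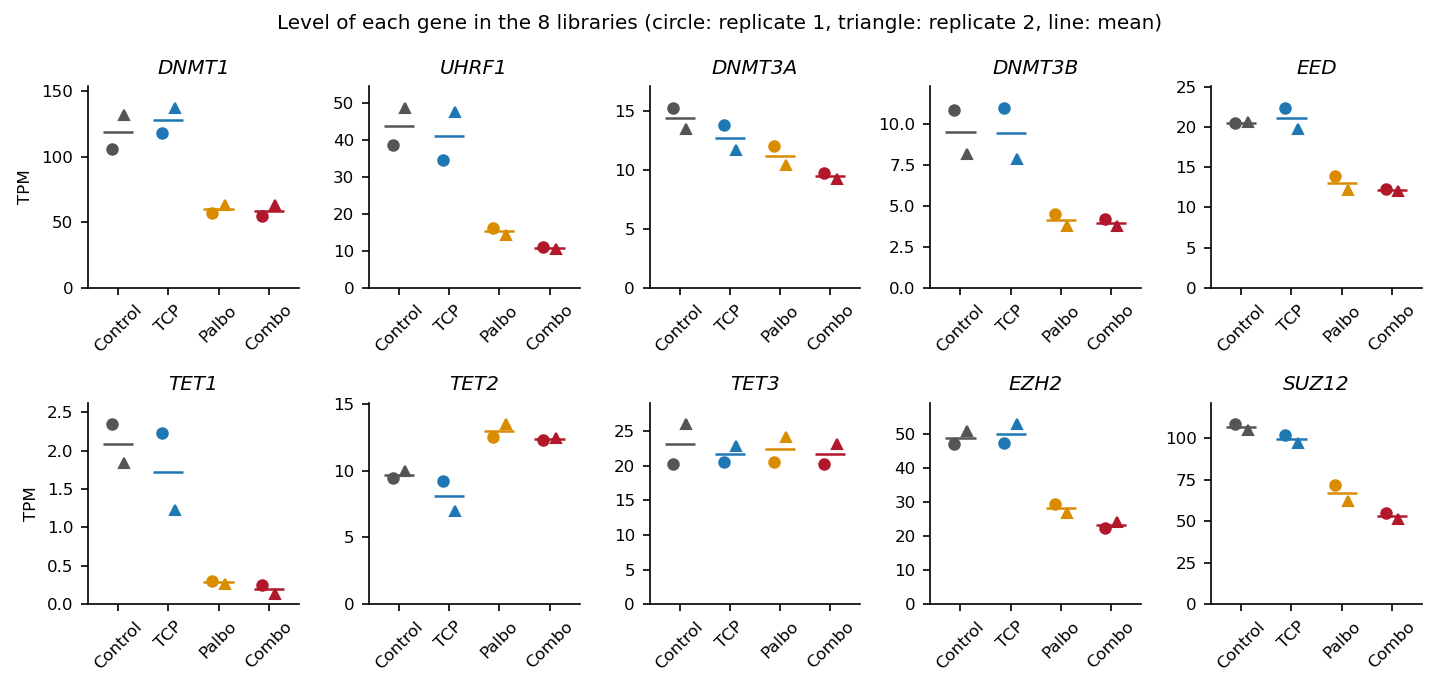
Level in TPM (vertical axis from 0, its own scale in each panel) of the 10 genes in the 4 groups (horizontal axis). Circles are replicate 1, triangles replicate 2 and lines the mean of both. In the panels of DNMT1, UHRF1, DNMT3B, TET1, EZH2, SUZ12 and EED all Palbo and Combo points lie under all Control and TCP points, as they do not in TET3. The share of all genes with this order, or with the other orders of libraries given in the text, was not counted. Of all genes tested, 45% in Palbo and 53.6% in Combo had a limma adjusted p under 0.05 against Control.

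Palbociclib alone was compared with Control using limma with Benjamini-Hochberg adjustment over the 14151 genes, and a gene was called at an adjusted p under 0.05. Of the 10 genes 7 were called, all 7 lower. TET1, included here and in the counts below, entered the test only through the Control and TCP libraries. Of all genes tested 45% were called and 30.2% were called lower. An unadjusted p under 0.05 was found for 9 of the 10 and for 53.3% of all genes. The median log2 fold change of the 10 genes was -0.72, against -0.16 over all genes tested. Under the stricter thresholds used in the study for differentially expressed genes (DEG; a log2 fold change of at least 1 in size and an adjusted p under 0.01), 3 of the 10 were lower (DNMT3B, UHRF1 and TET1), against 4.56% of all genes. With the replicate number as a block, 9 of the 10 were called, 8 lower and TET2 higher, against 55.5% of all genes. The combination gave 8 of 10 called lower than Control and none higher, against 53.6% of all genes called and 37.6% called lower. Its median log2 fold change was -0.998 for the 10 genes and -0.22 for all genes tested. Under the DEG thresholds 4 of the 10 were lower (DNMT3B, UHRF1, TET1 and EZH2), against 7.82% of all genes. Both comparisons use the same 2 Control libraries. For 1 gene taken alone, exact permutation of 2 libraries against 2 gives no p under 0.333.

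Several measures of the libraries moved with the same groups. The summed TPM of 16 genes of S phase and the cell cycle was 3117 to 3928 in Control and TCP, 1734 and 1765 in Palbo, and 1241 and 1322 in Combo. All 10 markers of MV4-11 identity were detected, of which 6 rose and 4 (FLT3, MEIS1, HOXA9 and HOXA10) fell in both Palbo and Combo. Their summed TPM, 1208 to 2606 in Control and TCP and 17390 to 29684 in Palbo and Combo, was mostly lysozyme (LYZ) in the latter, with means of 17708 and 27604 TPM. The 10 most abundant entries took 9.12 to 9.67% of the total in Control and TCP and 14.0 to 15.8% in Palbo and Combo, which lowers every other value on a scale with a fixed sum. The most abundant entry in every library was MIR6087, a microRNA gene. It had 22704 to 26427 TPM in Control and TCP and 30134 to 40060 in Palbo and Combo. The study's methods describe its AML cell lines as cocultured with the stromal line HS-5, which the titles of these libraries do not mention. Of 10 stromal markers, 4 were under 1 TPM in every library, POSTN was at 0, and the sum of the list was 0.932 to 13.0 TPM except in Palbo replicate 2, where it was 72.2. Whether stromal cells were carried over was not tested. Of 5 lymphoid markers, CD3E and MS4A1 were at 0 and the sum was 2.40 to 5.50 TPM. Without Palbo replicate 2, 7 of the 10 genes were called after palbociclib and 8 after the combination, as with it, and the part of the other measures in these results was not tested. A lower TPM can come from fewer cells that express a gene or from less RNA per cell, which cannot be told apart in bulk RNA.

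**Figure D2:**
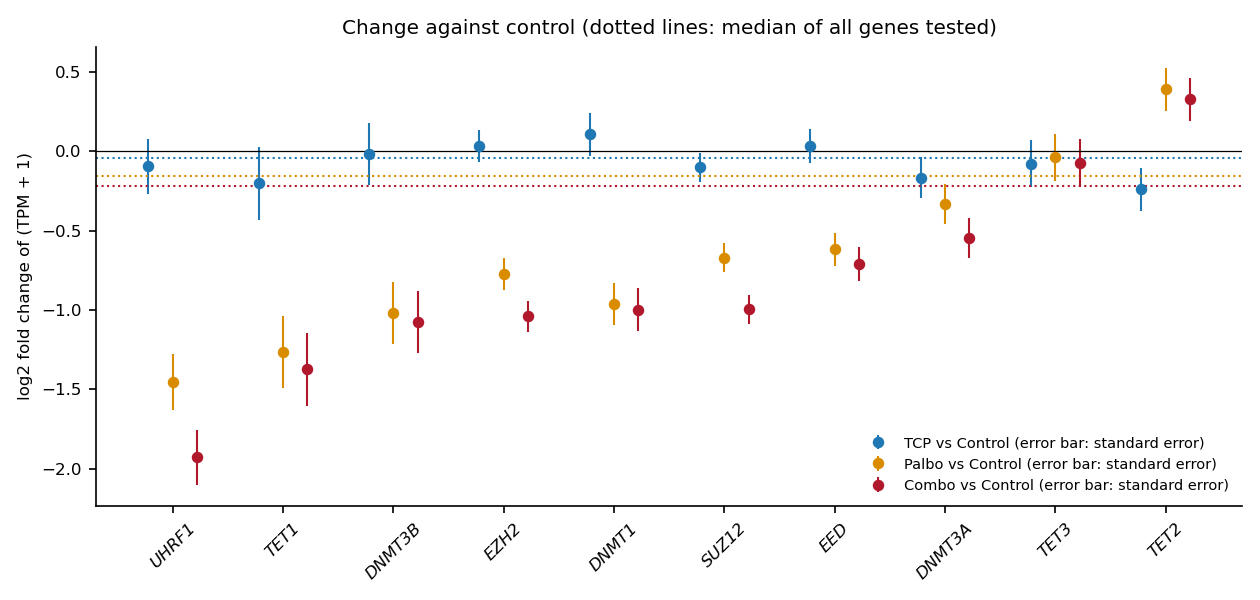
Log2 fold change of TPM + 1 against Control (vertical axis) for each of the 10 genes (horizontal axis), with the standard error from limma as bars and dotted lines at the median of all 14151 genes tested. TCP points lie between -0.24 and 0.11, and the Palbo and Combo points of UHRF1 lie lowest, at -1.45 and -1.93.

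DNMT1 (GRCh37 chr19:10244018-10341962, minus strand), the maintenance methyltransferase, had 106 and 132 TPM in Control, 118 and 138 in TCP, 57.4 and 63.3 in Palbo, and 55.0 and 62.9 in Combo. The groups with and without palbociclib did not overlap, and Palbo and Combo did. The mean went from 119 ± 18.1 TPM (SD, n = 2) in Control to 50.7% of that level in Palbo and 49.5% in Combo. The log2 fold change was -0.96 (SE 0.13, limma adjusted p = 0.00162) in Palbo and -0.998 (SE 0.13, limma adjusted p = 0.000978) in Combo. An exon of S1PR2, a sphingosine receptor gene, overlaps DNMT1 on the same strand in the annotation, and it had 0.919 to 5.78 TPM.

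UHRF1 (chr19:4903092-4962165, plus strand), the reader that brings DNMT1 to newly replicated DNA, had 38.7 and 48.9 TPM in Control, 34.6 and 47.7 in TCP, 16.2 and 14.3 in Palbo, and 10.9 and 10.5 in Combo. The 2 Combo libraries lay under the 2 Palbo libraries, which lay under all others. The Combo mean of 10.7 ± 0.301 TPM (SD, n = 2) was 24.4% of the Control mean. UHRF1 fell by 1.45 on the log2 scale in Palbo (SE 0.17, limma adjusted p = 0.00089) and by 1.93 in Combo (SE 0.17, limma adjusted p = 0.000188). The ratio of UHRF1 to DNMT1 within a library was 0.293 to 0.371 in Control and TCP, 0.282 and 0.226 in Palbo, and 0.198 and 0.167 in Combo, so that UHRF1 was lower also relative to DNMT1 in each library with palbociclib.

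DNMT3B (chr20:31350191-31397165, plus strand), a de novo methyltransferase, had 10.8 and 8.12 TPM in Control, 11.0 and 7.83 in TCP, 4.49 and 3.78 in Palbo, and 4.16 and 3.73 in Combo. The Control replicates differed by more than the Palbo replicates did, but no library with palbociclib reached the lowest one without. DNMT3B fell by 1.02 on the log2 scale in Palbo (SE 0.20, limma adjusted p = 0.00578) and by 1.07 in Combo (SE 0.20, limma adjusted p = 0.00359). The Combo mean was 41.6% of the Control mean.

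DNMT3A (chr2:25450724-25565459, minus strand), the other de novo methyltransferase, had 15.3 and 13.4 TPM in Control, 13.8 and 11.6 in TCP, 12.0 and 10.4 in Palbo, and 9.76 and 9.22 in Combo. The Palbo and TCP libraries overlapped, while both Combo libraries lay under all others. In Palbo the log2 fold change of -0.33 missed the threshold (SE 0.13, limma adjusted p = 0.0723), and passed it with the replicate block (adjusted p = 0.0155). In Combo DNMT3A fell to 66.1% of the Control mean, a log2 fold change of -0.55 (SE 0.13, limma adjusted p = 0.0103). After median-ratio scaling, which sets the median of all genes near 0, the Combo log2 fold change was -0.32 (limma adjusted p = 0.0532), and without Control replicate 1 or Combo replicate 2 the adjusted p was 0.0675 and 0.0607.

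DNMT3A and DNMT3B therefore changed by different amounts. The ratio of DNMT3A to DNMT3B TPM was 1.25 to 1.65 in Control and TCP, 2.68 and 2.74 in Palbo, and 2.35 and 2.47 in Combo, without overlap between libraries with and without palbociclib. As the ratio is taken within a library, the scaling between libraries does not enter it.

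TET1 (chr10:70320094-70454244, plus strand), a 5-methylcytosine dioxygenase, had 2.35 and 1.84 TPM in Control, 2.23 and 1.22 in TCP, 0.301 and 0.266 in Palbo, and 0.250 and 0.133 in Combo. The mean fell from 2.09 ± 0.36 TPM (SD, n = 2) in Control to 13.5% of it in Palbo and 9.16% in Combo. On the tested scale the log2 fold change was -1.26 in Palbo (SE 0.23, limma adjusted p = 0.00461) and -1.37 in Combo (SE 0.23, limma adjusted p = 0.00243). TET1 entered this test only through the Control and TCP libraries, which favoured a difference. With no filter on low values the limma adjusted p was 0.00564 in Palbo and 0.00308 in Combo. A pseudocount of 1 TPM understates the change of a gene at this level, and with 0.1 TPM the log2 fold changes were -2.51 and -2.93. TPM keep no read depth, so the counting error of these low values is unknown.

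TET2 (chr4:106067032-106200973, plus strand), the TET gene mutated most often in myeloid leukemia, had 9.44 and 9.95 TPM in Control, 9.26 and 6.996 in TCP, 12.5 and 13.5 in Palbo, and 12.3 and 12.5 in Combo. All 4 libraries with palbociclib lay above all 4 without. Against Control the log2 fold change was 0.39 in Palbo (SE 0.14, limma adjusted p = 0.0525) and 0.33 in Combo (SE 0.14, limma adjusted p = 0.0808), neither called. After median-ratio scaling both were called, at 0.55 in Palbo (limma adjusted p = 0.0122) and 0.55 in Combo (limma adjusted p = 0.01). The fit with a replicate block called TET2 in Palbo (adjusted p = 0.0446) and not in Combo (adjusted p = 0.0716). With 1 library left out in turn, the log2 fold change in Palbo ranged from 0.34 (without Palbo replicate 2) to 0.44 (without Palbo replicate 1). In Combo it ranged from 0.29 (without Control replicate 1) to 0.36 (without Control replicate 2).

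TET3 (chr2:74212037-74335303, plus strand), the most abundant TET gene here, had 20.2 and 26.0 TPM in Control, 20.5 and 22.9 in TCP, 20.6 and 24.1 in Palbo, and 20.3 and 23.2 in Combo. Every group overlapped every other, and replicate 2 was the higher in all 4 groups. The log2 fold change was -0.04 in Palbo (SE 0.15, limma adjusted p = 0.853) and -0.07 in Combo (SE 0.15, limma adjusted p = 0.693), and both signs turned after median-ratio scaling, to 0.13 and 0.16.

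The TET genes together held 31.1 to 37.9 TPM in every library, with overlap between the groups, while DNMT1, DNMT3A and DNMT3B together held 132 to 157 TPM in Control and TCP and 68.9 to 77.5 in Palbo and Combo. The ratio of the summed DNMT to the summed TET transcripts was 4.14 and 4.06 in Control, 4.47 and 5.05 in TCP, 2.21 and 2.04 in Palbo, and 2.09 and 2.12 in Combo. TET1 made up 3.93 to 7.34% of the TET transcripts in Control and TCP and 0.373 to 0.898% in Palbo and Combo, and TET2 made up 22.5 to 29.5% without palbociclib and 34.8 to 37.5% with it. These sums are of transcripts and say nothing of enzyme activity.

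**Figure D3:**
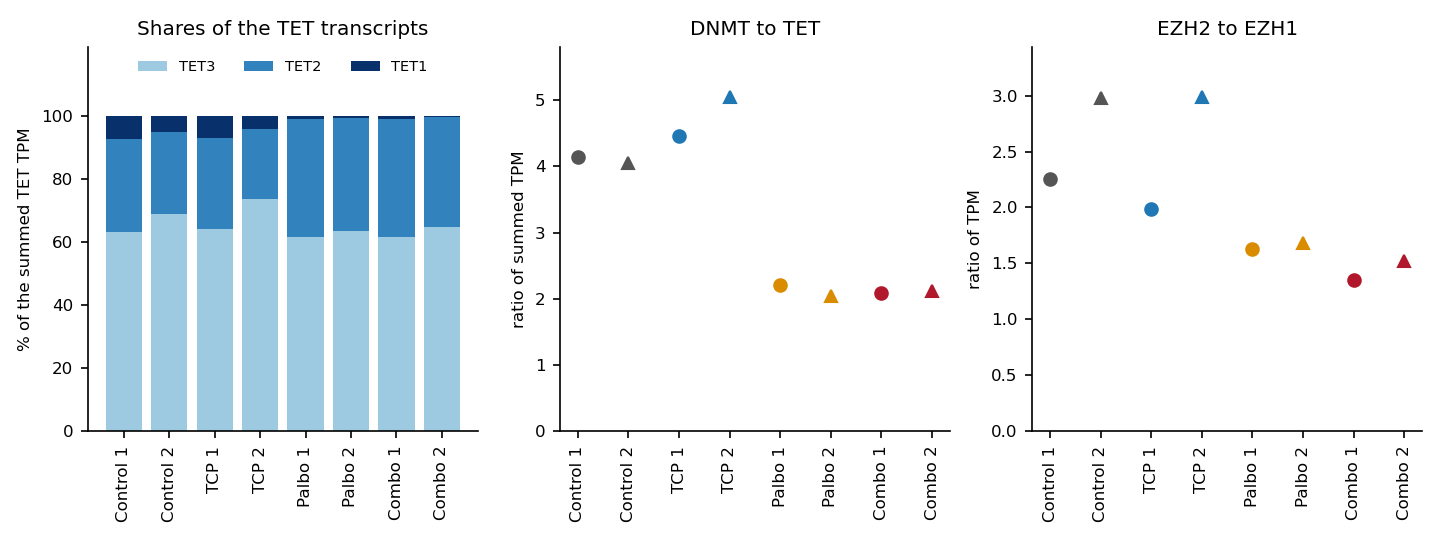
Left, share in % of the summed TPM of TET1, TET2 and TET3 in each library as stacked bars; middle and right, the ratio of summed DNMT1, DNMT3A and DNMT3B to summed TET TPM and the ratio of EZH2 to EZH1 TPM, 1 point per library (circle for replicate 1, triangle for replicate 2). The DNMT to TET ratio is 4.06 to 5.05 without palbociclib and 2.04 to 2.21 with it.

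EZH2 (chr7:148504349-148581413, minus strand), the catalytic subunit of PRC2, had 47.0 and 50.8 TPM in Control, 47.3 and 52.9 in TCP, 29.5 and 26.9 in Palbo, and 22.3 and 24.3 in Combo. Control and TCP overlapped, and both Combo libraries lay under both Palbo libraries. EZH2 fell by 0.77 on the log2 scale in Palbo (SE 0.10, limma adjusted p = 0.00117) and by 1.04 in Combo (SE 0.10, limma adjusted p = 0.000235), where the mean was 47.6% of Control.

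SUZ12 (chr17:30264026-30328057, plus strand), the subunit that holds the complex together, had 108 and 105 TPM in Control, 102 and 96.7 in TCP, 71.6 and 62.1 in Palbo, and 54.6 and 51.3 in Combo. The 4 groups did not overlap with each other. SUZ12 fell by 0.67 on the log2 scale in Palbo (SE 0.09, limma adjusted p = 0.00134) and by 0.997 in Combo (SE 0.09, limma adjusted p = 0.000183). Its pseudogene SUZ12P1, which can share reads with it, had 27.05 to 41.4 TPM and log2 fold changes of -0.19 in Palbo (limma adjusted p = 0.262) and -0.50 in Combo (limma adjusted p = 0.016).

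EED (chr11:85912254-85989855, plus strand), which binds the H3K27me3 mark, had 20.5 and 20.6 TPM in Control, 22.4 and 19.8 in TCP, 13.9 and 12.2 in Palbo, and 12.3 and 12.0 in Combo. Libraries with palbociclib lay under all those without, and Palbo and Combo overlapped. EED fell by 0.62 on the log2 scale in Palbo (SE 0.11, limma adjusted p = 0.00356) and by 0.71 in Combo (SE 0.11, limma adjusted p = 0.00149).

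EZH1, the alternative catalytic subunit, had a mean of 19.0 ± 2.66 TPM (SD, n = 2) in Control and 16.2 ± 0.366 in Combo, a log2 fold change of -0.21 that did not pass the test (SE 0.16, limma adjusted p = 0.312). The ratio of EZH2 to EZH1 TPM was 2.26 and 2.98 in Control, 1.99 and 2.99 in TCP, 1.63 and 1.68 in Palbo, and 1.35 and 1.52 in Combo. It was lower in every library with palbociclib than in any without.

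TCP alone left all 10 genes without a call in limma, where 0.431% of all genes were called, and 0 of the 10 had an unadjusted p under 0.05, against 8.77% of all genes. The log2 fold changes ran from -0.24 in TET2 (SE 0.14, limma adjusted p = 0.691) to 0.11 in DNMT1 (SE 0.13, limma adjusted p = 0.884). The TET2 value was -0.42 without TCP replicate 1 and -0.059 without TCP replicate 2, uncalled in both. Both TCP libraries lay under both Control libraries in TET2 and SUZ12, and the 2 groups overlapped in the other genes. Such an order of 2 libraries against 2 has an exact permutation p of 0.333, and its share over all genes was not counted.

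The combination was set against each single molecule. Against TCP, 9 of the 10 genes were called, 8 lower and TET2 higher, where 50.2% of all genes were called and 33.8% were called lower. TET1 is among the 8, and it entered the test only through libraries without palbociclib. UHRF1 fell by 1.83 on the log2 scale (limma adjusted p = 0.000261), DNMT1 by 1.10 (limma adjusted p = 0.000719) and EZH2 by 1.07 (limma adjusted p = 0.000239). TET2 rose by 0.56 (SE 0.14, limma adjusted p = 0.0123), a call lost without either Combo library (adjusted p = 0.054 and 0.0622). DNMT3A was lower by a log2 fold change of -0.38 (limma adjusted p = 0.0429), and this call was lost in 12 of 17 alternative settings.

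Against Palbo, 0 of the 10 genes were called in limma, and 3.49% of all genes were called. At an unadjusted p under 0.05 there were 3 of the 10 (UHRF1, EZH2 and SUZ12) and 17.5% of all genes. All 10 log2 fold changes were under 0, as was the median of all genes tested, at -0.07 against -0.10 for the 10. UHRF1 had a log2 fold change of -0.47 (SE 0.17, limma adjusted p = 0.225), SUZ12 of -0.33 (SE 0.09, limma adjusted p = 0.115) and EZH2 of -0.27 (SE 0.10, limma adjusted p = 0.23). With the replicate block SUZ12 was called (adjusted p = 0.0311), 1 of 10 genes against 8.87% of all genes.

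The interaction term of limma asks whether both molecules together differed from the sum of their single changes on the log2 scale. By the order given in the methods, TCP may have acted for a shorter time in Combo than in TCP alone. Neither this term nor Combo against TCP can separate that from the combination. The interaction term called 0 of the 10 genes and 0% of all genes, with 0 of the 10 and 904 of 14151 (6.39%) at an unadjusted p under 0.05. The terms were -0.38 for UHRF1 (SE 0.25, limma adjusted p = 0.927), -0.30 for EZH2 (SE 0.14, limma adjusted p = 0.82) and -0.22 for SUZ12 (SE 0.13, limma adjusted p = 0.902). With 1 library left out in turn they ranged from -0.60 (without TCP replicate 1) to -0.15 (without TCP replicate 2) for UHRF1, from -0.38 to -0.22 for EZH2, and from -0.33 (without Palbo replicate 2) to -0.12 (without Palbo replicate 1) for SUZ12, uncalled in all. For UHRF1 the term was -0.21 without Control replicate 1.

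Lists of genes that work with these 10 were described by the same counts. They are to be read beside the 30.2% and 37.6% of all genes called lower and the medians of -0.16 and -0.22. Of all 14151 genes tested, 2090 were called higher in Palbo and 2257 in Combo. Of 10 tested partners of PRC2, 4 fell and 0 rose in Palbo and 6 fell and 1 rose in Combo, with median log2 fold changes of -0.27 and -0.37. The gene that rose, named after its value was seen, was C17orf96 (EPOP; 0.51, limma adjusted p = 0.0484). AEBP2, an accessory subunit, went from 28.5 ± 1.73 to 13.7 ± 0.185 TPM (SD, n = 2) in Combo, a log2 fold change of -1.01 (limma adjusted p = 0.000534), and the histone binding subunit RBBP7 had -0.94 (limma adjusted p = 0.000288). MTF2, which guides PRC2 to CpG islands, had a log2 fold change of -0.73 and RBBP4 one of -0.54 in Combo. Of 21 subunits of PRC1, the complex that reads H3K27me3 and ubiquitinates histone H2A, 6 fell and 2 rose in Palbo, and 10 fell and 2 rose in Combo, with medians of -0.25 and -0.38. The genes that rose, also named afterwards, were CBX7 and PHC1 in Palbo and PHC1 and PHC2 in Combo. The largest changes in Combo were those of SCMH1 (-1.27), PCGF6 (-1.10), CBX2 (-1.07) and PCGF5 (-0.87), each called, as log2 fold changes.

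Of 7 genes that remove H3K27me3 or the H2A ubiquitin, 3 fell in Palbo (KDM6A, ASXL1 and USP16) and 4 in Combo, with 0 higher and medians of -0.25 and -0.38. KDM6A, an H3K27 demethylase, went from 15.3 ± 0.209 to 11.2 ± 0.0435 TPM (SD, n = 2) in Combo, a log2 fold change of -0.42 (limma adjusted p = 0.0173). KDM6B, the related demethylase, had 12.3 ± 1.05 TPM in Control and 12.2 ± 0.71 in Combo (limma adjusted p = 0.96). USP16, an H2A deubiquitinase, fell by 0.70 on the log2 scale, ASXL1 by 0.60 and ASXL2 by 0.38.

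Of 25 tested cofactors and readers of DNA methylation, 13 fell and 2 rose in Palbo, and 15 fell and 2 rose in Combo, with medians of -0.38 and -0.42. CXXC5 and ZBTB4, named after their values were seen, were the genes that rose in both. HELLS, a chromatin remodeller needed for DNA methylation, went from 24.5 ± 1.44 to 6.87 ± 0.213 TPM (SD, n = 2) in Combo, a log2 fold change of -1.69 (SE 0.13, limma adjusted p = 0.000114). UHRF2, the relative of UHRF1, fell by 1.03 (SE 0.16, limma adjusted p = 0.00166). The largest decrease was that of WT1, a transcription factor that can recruit TET proteins, from 17.2 ± 1.23 to 2.25 ± 0.538 TPM (log2 fold change -2.49, limma adjusted p = 9.62e-05). IDH2, a mitochondrial isocitrate dehydrogenase that makes the 2-oxoglutarate that TET enzymes use, fell by 1.06.

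Of 16 genes of S phase and the cell cycle, 15 fell in Palbo and all 16 in Combo, with median log2 fold changes of -1.12 and -1.62. The gene without a call in Palbo was CCNE2, a cyclin E. CDT1, a replication licensing factor, fell by 2.07 in Combo, cyclin A (CCNA2) by 2.05, CDK1 by 1.99 and TOP2A, a topoisomerase, by 1.79. Against Palbo, 6 of these 16 were called lower in Combo, where 1.44% of all genes were, and 13 with the replicate block, where 5.08% of all genes were. After TCP alone 0 genes of any of the 5 lists were called in limma, where 0.431% of all genes were. An unadjusted p under 0.05 was found for 1 of 10 PRC2 partners, 1 of 21 PRC1 subunits and 2 of the 7 genes that remove H3K27me3 or H2A ubiquitin. It was found for 2 of 25 cofactors and readers of DNA methylation and 1 of 16 S phase genes, against 8.77% of all genes. The interaction term had an unadjusted p under 0.05 in 8 of the 16 S phase genes, against 6.39% of all genes. None was called, and all 16 terms were under 0, with a median of -0.36. In the other lists this held for 0 of 10 PRC2 partners, 1 of 21 PRC1 subunits, 0 of the 7 removers and 1 of the 25 cofactors and readers.

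**Figure D4:**
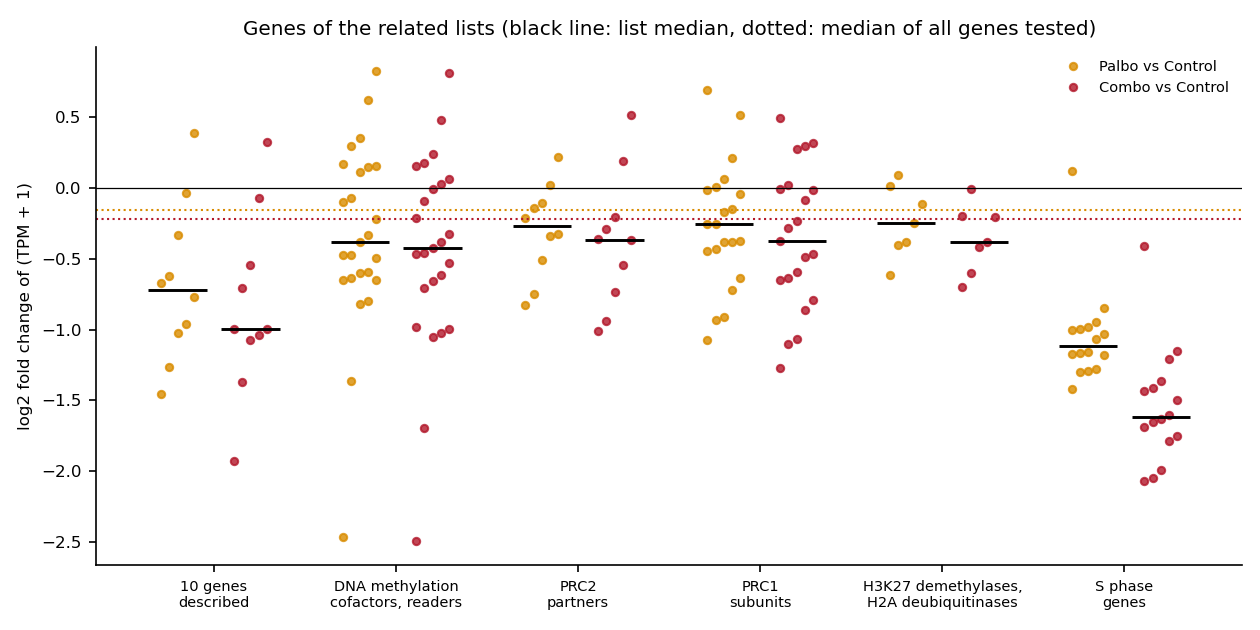
Log2 fold change of TPM + 1 against Control (vertical axis) of each tested gene in the 10 described here and in 5 related lists (horizontal axis), in Palbo and in Combo, with black lines at the median of each list and dotted lines at the median of all genes tested. The median of the S phase genes is -1.12 in Palbo and -1.62 in Combo, and that of the 10 genes is -0.72 and -0.998.

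Genes whose pattern was most like that of each of the 10 were ranked by Pearson's r of log2(TPM + 1) over the 8 libraries, among 11645 genes with at least 5 TPM in the mean of a group. For UHRF1 they were POLA2, CENPA and CDK4 (r = 0.998 each), for EZH2 they were CCNB1, EMG1 and NIF3L1 (r = 0.999, 0.999 and 0.998) and for SUZ12 they were CHRAC1, RAD54B and NUP107 (r = 0.999, 0.998 and 0.997). Those of DNMT1 were MRRF, TBC1D1 and RASSF1 (r = 0.998, 0.996 and 0.995), and those of DNMT3A were RDX, TAF2 and LOC100132356 (r = 0.996, 0.994 and 0.993). DNMT3B had KIAA0195, PCBP2 and SCCPDH (r = 0.999, 0.998 and 0.998), and EED had IKBKAP, TXNL1 and ACAT2 (r = 0.998, 0.998 and 0.997). TET1 had TRMT10A, ASNS and POLR1D (r = 0.998, 0.997 and 0.997), and TET2 had GPATCH2L, TBCK and ZNF605 (r = 0.992, 0.987 and 0.984). TET3 had the lowest value among the 10 for its closest gene, SON (r = 0.976), followed by SNORA26 (r = 0.958) and ADCY9 (r = 0.952). The libraries share 2 levels, with and without palbociclib, and this raises r for any pair of genes that both differ between them.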

How the data were processed

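The authors deposited TPM per gene for 8 libraries of MV4-11 cells in 1 table. Per the study's methods and processing notes, they aligned stranded mRNA reads to hg19 with Subread and counted with featureCounts 1.6.4, and SAMtools 1.9 is also named. The annotation, the gene lengths and the strand setting are not given in the sources used here, so overlapping genes, pseudogenes and antisense genes may share reads. Each library sums to 1e+06 TPM, so depth is unknown, no counting interval is given, and the deposited TPM do not allow the count test named in the study.

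From the deposited TPM, log2(TPM + 1) was fitted with limma 3.58.1 in R 4.3.3, with 4 group means over all 8 libraries, 4 residual degrees of freedom, moderated variances with a mean-variance trend and Benjamini-Hochberg adjustment over 14151 genes. The script was tested on simulated data. Genes entered the test if 2 or more libraries reached 1 TPM. Fold changes are those of TPM + 1 and come out too small for genes at low levels. TPM are a level per length. Samples were grouped by their titles. The 10 genes, the gene lists and the promoter words were chosen with earlier results of these data known. By the rule for other genes, the text names EZH1, KDM6A, KDM6B, HELLS, UHRF2, up to 4 genes per list with the largest change in Combo, and the 3 genes closest to each of the 10 in pattern.

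Deviations of libraries with the same replicate number from their group means correlated at 0.169 to 0.491 across genes in all 6 pairs of groups. Libraries of 1 number were taken as pairs only in the fit with a replicate block. The main fit, which gave the values not marked otherwise, has no term for pairs. The pairing comes from the data alone. Alternatives were another pseudocount, other filters, other scalings, a replicate block, the compared groups alone, no trend, the DEG thresholds and leaving out each library. Gene coordinates are from an annotation of GRCh37, which is not necessarily the one the authors counted on.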

Additional observations from a re-analysis of the deposited data

How the results depend on the processing

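The number of the 10 genes called changed most with the call rule. Under the DEG thresholds it was 3 in Palbo, 4 in Combo and 5 in Combo against TCP, all lower, with TET1 in each of these counts. Of all 14151 genes, 645, 1107 and 948 were lower under these thresholds in the same comparisons. These thresholds are stricter in both the size of the change and the adjusted p. With the replicate block 1 gene was called in Combo against Palbo, SUZ12, and in Palbo against Control DNMT3A and TET2 were called as well; the block changed no other call among the 10. TET3 changed sign with scaling, in Palbo to 0.11 after quantile normalization and 0.13 after median-ratio scaling, and in Combo to 0.14 and 0.16. When 1 library was left out in turn, the log2 fold change of TET3 ranged from -0.21 to 0.14 in Palbo and from -0.25 to 0.10 in Combo, and that of DNMT1 after TCP from -0.048 to 0.26, and that of TET2 after TCP from -0.42 to -0.059. None of these passed the test under any setting. DNMT3A and TET2 crossed the threshold under several settings, and the cause was not tested. TET1 left the test under a filter on the mean, set to 5 TPM, and the fit of the compared groups alone was not run for the interaction, which needs all 4 groups. With 2 libraries per group and depth unknown, small changes of single genes are not resolved.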
